A study of Mus musculus with 11 samples.

Results

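The clustered protocadherin genes of the mouse were followed here through the 11 ChIP-Seq libraries of a study on how quickly 2 histone variants, H3.3 and MacroH2A2, enter chromatin in embryonic stem (ES) cells and in mouse embryonic fibroblasts (MEFs). Members were all protein-coding genes of chromosome 18 whose symbol starts with Pcdha, Pcdhb or Pcdhg in the GENCODE vM1 annotation of mm9. This gave 24 genes of 22367 protein-coding genes, and of 517 on chromosome 18. The annotation holds 10 variable first exons of the alpha cluster under the symbols Pcdha11 and Pcdha3, 21 of the beta cluster under 21 Pcdhb symbols, and 9 of the gamma cluster under Pcdhgc5, so that 40 variable first exons were measured in all. Alpha and gamma exons are therefore named by their order along the chromosome, and Pcdha3 is alpha exon 3. All lie on the plus strand.

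Clustered protocadherins are cadherin-like adhesion proteins best known from neurons. In the alpha and gamma clusters, each large variable exon has its own promoter and codes for the extracellular, transmembrane and proximal cytoplasmic part of 1 protein, and it is spliced to constant exons at the end of the cluster that code for a shared cytoplasmic tail. Each beta gene is a single exon without a constant part. In neurons, single promoters are chosen in individual cells with the help of CTCF, cohesin and DNA methylation, whereas most of the alternate isoforms are silent in other cells. MacroH2A2 is an H2A variant with a large extra domain that is often found in repressed chromatin. H3.3 is the H3 variant deposited outside of replication, mostly at active promoters and enhancers.

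The tagged cells derived from KH2 ES cells, which carry the transactivator M2rtTA at ROSA26, and the strain of all samples is labelled 129 X C57bl/6. The tagged lines also carry an HA-tagged histone cDNA behind the Tet operator next to Col1a1, which doxycycline (Dox, 2 µg/mL) switches on. HA-H3.3 ES cells were sampled with an anti-HA antibody after 3 h and 6 h of Dox. HA-Macro ES cells (HA-tagged MacroH2A2) were sampled with anti-HA without Dox and after 3 h, 6 h and 12 h, and HA-Macro MEFs after 3 h, 6 h and 12 h. Total MacroH2A2 was sampled with an anti-MacroH2A2 antibody in parental KH2 ES cells and in wild type MEFs, both labelled as not treated, and each of these libraries pools 2 replicates according to its label. The methods also describe this antibody in HA-Macro cells with and without Dox, and whether such data entered the pools is not given in the sources used here. The ES cells were cycling and grown on feeder MEFs, which were depleted by plating before harvest and may not be wholly absent. The HA-Macro MEFs came from chimeric embryos and were drug-selected against cells of the host blastocyst. A MEF library without Dox and an HA-H3.3 library without Dox were not analysed here. Histone libraries hold no transcripts, so the labels ES and MEF could not be checked against expressed markers.

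Each condition is 1 library, so there was no replicate spread and no single condition was tested against another. HA-Macro ES cells and MEFs share the hours 3, 6 and 12, and there the cell types were also compared over 3 pairs. Values are distinct mapped intervals in parts per 1000000 of the library (p.p.m.), assigned by their midpoints, and each log2 ratio stands with its exact 95% counting interval in brackets, which covers counting error only. An interval that excludes 0 therefore separates 2 libraries and not 2 conditions. Depth ran from 6448310 distinct intervals (HA-H3.3 ES 3 h) to 19869559 (HA-Macro MEF 12 h), and a 5 kb tile of the genome held 1.95 p.p.m. on average. Chromosome 18 took 3.34% to 3.55% of each library. The HA-Macro ES 3 h library stood apart from the other 6 HA-Macro libraries, with 0.112% of its intervals on chromosome Y against 0.0198% to 0.0244%. The HA-H3.3 libraries had 0.102% and 0.0673%, and anti-MacroH2A2 ES had 0.100%. Across the 40 exons, the levels of HA-Macro ES 3 h correlated with those of HA-H3.3 ES 6 h at Pearson r = 0.84 and Spearman rho = 0.72, against 0.46 and 0.54 for HA-Macro ES 12 h, where the points share base composition and mappability. On chromosome 18, 0.806% of its interval ends also occurred in HA-H3.3 ES 6 h, within the 0.402% to 2.45% seen over all pairs of libraries. Such a share depends on depth and interval length, and chromatin mixed before sequencing need not share ends, so it cannot decide about mixing. Whether this library holds HA-Macro chromatin of 3 h alone, or is mixed or mislabelled, was not tested, so its values are those of the library labelled HA-Macro ES 3 h. The results that rest on it are therefore set beside values of the 6 h library.

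The locus spans chr18:37089939-38001527 of mm9. The alpha cluster (257.373 kb) starts it, the beta cluster (256.422 kb) lies at chr18:37424652-37681073, and the gamma cluster (167.539 kb) at chr18:37833989-38001527. GC content was 40.4% in alpha and beta and 45.2% in gamma, and CpG dinucleotides numbered 12.5, 10.9 and 18.96 per kb. Reads from repeated sequence were placed at random by the authors, and 77.4% of the 32-base words of alpha, 79.5% of beta and 93.5% of gamma occur once in the genome. Counts over alpha and beta can therefore include reads of similar sequence elsewhere. Alpha exons 9 and 10, Pcdhb1 and gamma exons 7, 8 and 9 consist wholly of unique words. Sequence letters are not shown here.

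In ES cells the gamma cluster stood out from alpha and beta, and it did so in H3.3 more than in MacroH2A2. HA-H3.3 levels over gamma were 4.12 p.p.m. per 5 kb at 3 h and 6.17 at 6 h, that is 2.11 and 3.16 times the genome mean. Alpha held 1.97 and 1.94, and beta 2.03 and 1.83, so both stayed near the genome mean at both times. Of 15260 genome tiles of the length of gamma, 97.3% were lower at 3 h and 97.7% at 6 h. In the no-Dox anti-HA library of HA-Macro ES cells, 98.0% of these tiles were lower than gamma, so the rank alone does not set H3.3 apart. Gamma over alpha, a ratio within each library that no scaling can change, was 2.09 at 3 h and 3.18 at 6 h.

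Total MacroH2A2 was more even. In ES cells anti-MacroH2A2 gave 2.62 p.p.m. per 5 kb over alpha, 2.32 over beta and 2.95 over gamma, and all 3 exceeded the genome mean. In MEFs these were 1.92, 1.75 and 1.83, all below it. Among tiles of its own length, gamma exceeded 90.4% in ES cells and 45.4% in MEFs.

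Without Dox, anti-HA in HA-Macro ES cells gave 2.26 over alpha, 2.09 over beta and 2.52 over gamma. This level was already above the genome mean in all 3 clusters, and antibody background cannot be told apart in it from HA-Macro made without Dox. After Dox, gamma held 3.78 at 3 h, 3.24 at 6 h and 2.71 at 12 h in HA-Macro ES cells, and 1.72, 1.80 and 1.54 in HA-Macro MEFs. For alpha the ES levels were 1.99, 2.12 and 2.07 and the MEF levels 1.73, 1.76 and 1.55. For beta they were 1.88, 2.05 and 2.02 in ES cells and 1.27, 1.24 and 1.23 in MEFs. Over the whole spans, the alpha and beta levels of HA-Macro ES cells thus lay slightly below their own no-Dox values at every hour. Gamma levels lay above theirs, and all MEF levels below the ES levels of the same hour. In windows on single exons the median ratio over no Dox was above 0 in alpha and beta, as given below.

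**Figure D1:**
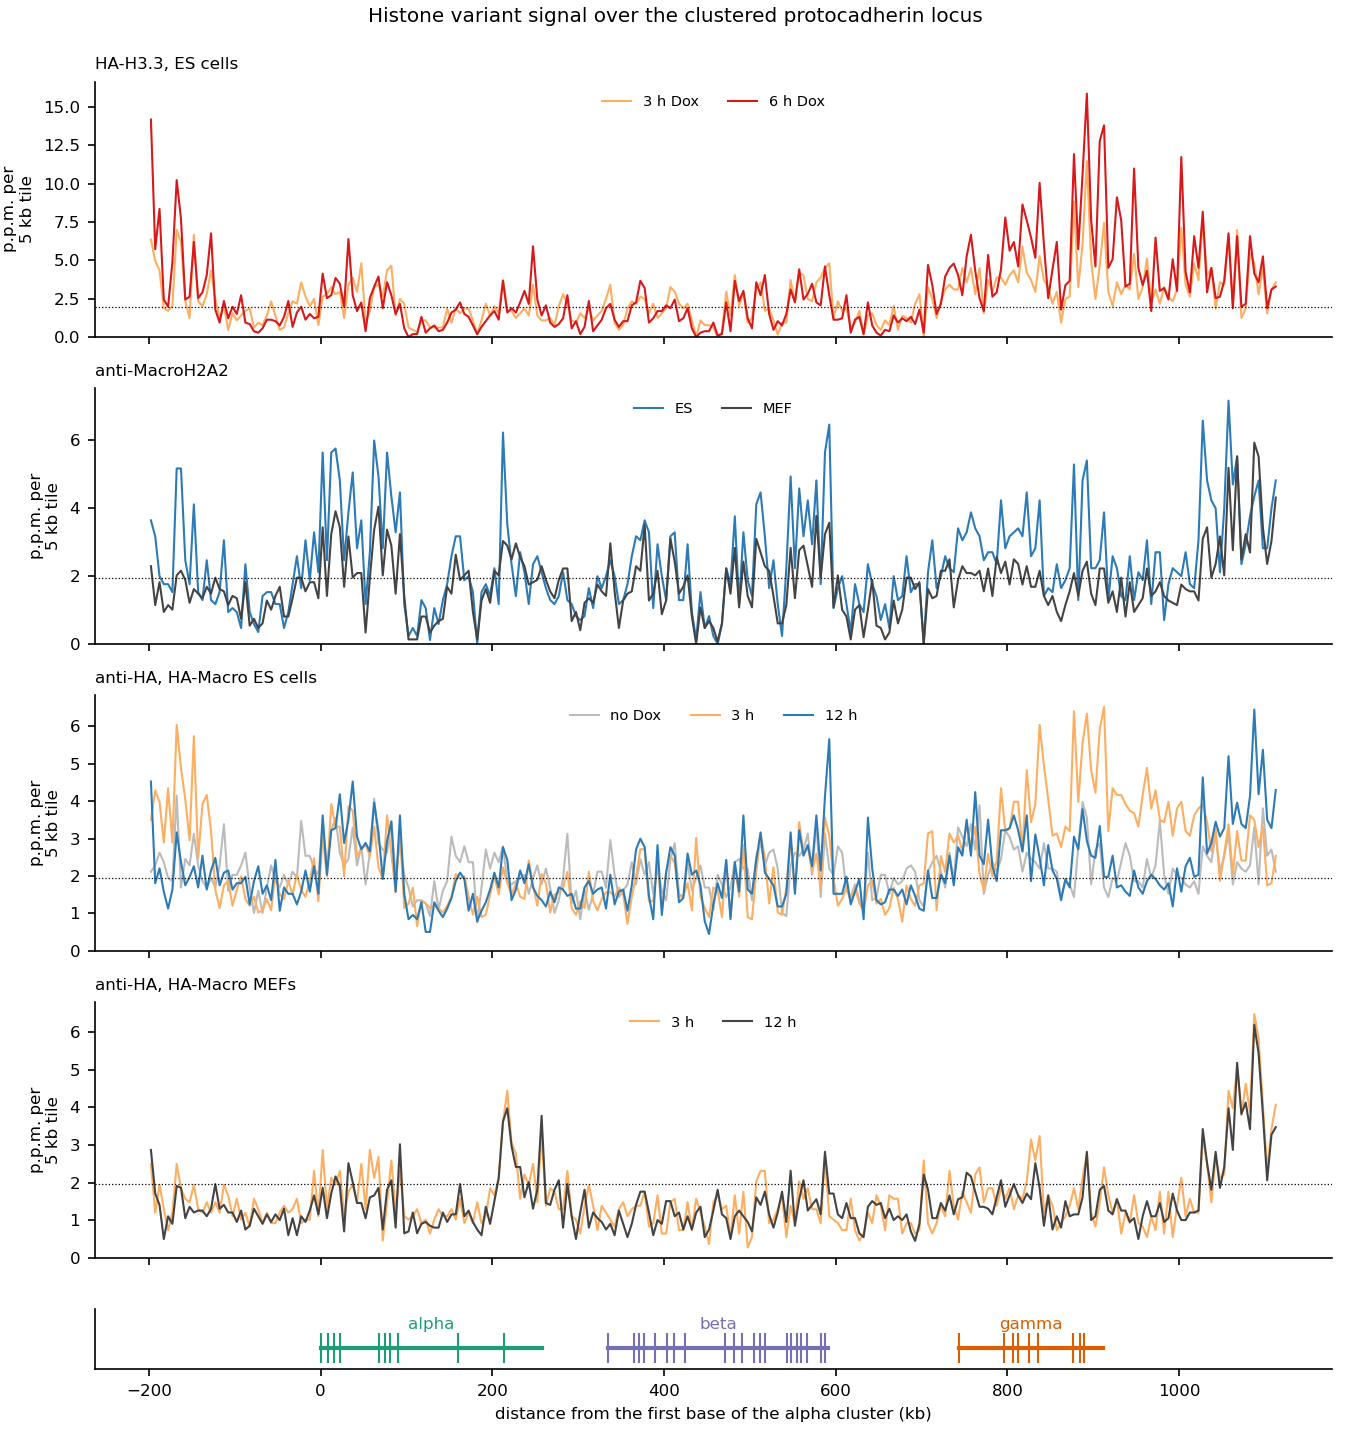
Each upper panel plots p.p.m. of distinct intervals per 5 kb tile (y axis) against the distance from the first base of the alpha cluster in kb (x axis), with 200 kb flanks, for the libraries named in its legend; the dotted line is the genome mean of 1.95 and the lowest panel marks the 3 clusters and the 40 variable first exons. The highest HA-H3.3 tile of the 3 clusters, 15.9 p.p.m. at 6 h, starts 890 kb from the alpha start, over gamma exon 9.

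The flanks show what surrounded the locus. In the 200 kb downstream of gamma, HA-H3.3 held 3.62 p.p.m. per 5 kb at 3 h and 4.66 at 6 h, and anti-MacroH2A2 held 3.03 in ES cells and 2.34 in MEFs. The upstream flank held 2.40 and 2.89 in HA-H3.3 and 1.93 and 1.40 in anti-MacroH2A2. In ES cells the downstream flank was thus closer to gamma than the upstream flank was. The 18 other protein-coding genes whose starts lie in the flanks, gaps or clusters had anti-MacroH2A2 MEF over ES log2 ratios between −1.40 and 0.30.

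The level at the exons themselves was compared with the remaining sequence of each cluster. Per kb, alpha exons held 1.65 p.p.m. of total MacroH2A2 in ES cells against 0.408 between them, a log2 ratio of 2.02 [1.83, 2.20]. The same ratio was 1.39 [1.21, 1.57] for beta and 1.09 [0.87, 1.31] for gamma. In MEFs it was 1.73 for alpha, 1.20 for beta and 0.93 for gamma. Without Dox, anti-HA gave 0.66, 0.46 and 0.49, so part of the contrast between exons and their surroundings was present before Dox. HA-Macro at 12 h lay between these and total MacroH2A2, with 1.45, 1.02 and 0.60 in ES cells and 1.44, 0.92 and 0.72 in MEFs. HA-H3.3 at 6 h gave 1.70, 1.61 and 1.13. Exons were thus richer than their surroundings in every library, the no-Dox one included. RefSeq lists 14 Pcdha, 22 Pcdhb and 22 Pcdhg names, against 10, 21 and 9 exons measured here. The remaining sequence can therefore hold variable exons that were not annotated, most of all in gamma. Their part in the differences between clusters was not tested.

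Within the exons the peaks of both variants fell at like places in alpha and beta and at different places in gamma. Total MacroH2A2 in ES cells was highest 1500 to 2000 bp downstream of the exon start in alpha and beta, inside the exon and away from the promoter, with 2.87 and 2.18 p.p.m. per kb. In MEFs the same bins were again the highest, with 1.62 and 1.49. HA-H3.3 was highest in the same bin in beta, with 1.34 at 3 h and 1.18 at 6 h, and in alpha at 6 h, with 1.24, whereas its highest alpha bin at 3 h was 2000 to 2500 bp, with 1.33. In gamma the highest bin of total MacroH2A2 in ES cells was 2000 to 2500 bp, with 1.67. HA-H3.3 in gamma was highest in the first 500 bp of the exon, with 2.10 at 3 h and 3.34 at 6 h. No-Dox anti-HA was highest in the same bin as total MacroH2A2 in ES cells in all 3 clusters. It reached 0.914 in the alpha bin, 1.02 in the beta bin and 1.07 in the gamma bin.

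Base composition moved along with these peaks. In alpha the 1500 to 2000 bp bin had a GC content of 58.4% and 54.8 CpG per kb, and in beta 59.3% and 48.8, against 34.7% and 36.7% GC in the bins 1000 to 500 bp upstream of the start. Those bins are also the less unique ones, with 77.4% and 71.9% of 32-base words occurring once. The first 500 bp of alpha exons had as many CpG (58.8 per kb) and a like GC content (57.6%) and held 1.20 p.p.m. per kb of total MacroH2A2. That bin was the least unique of the alpha profile, with 66.9% of words occurring once. Across the 40 exons, the total MacroH2A2 level in ES cells correlated with CpG per kb at r = 0.56 and rho = 0.49, and with the no-Dox level at r = 0.48 and rho = 0.46. The part of base composition or read placement in the profile was not tested.

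**Figure D2:**
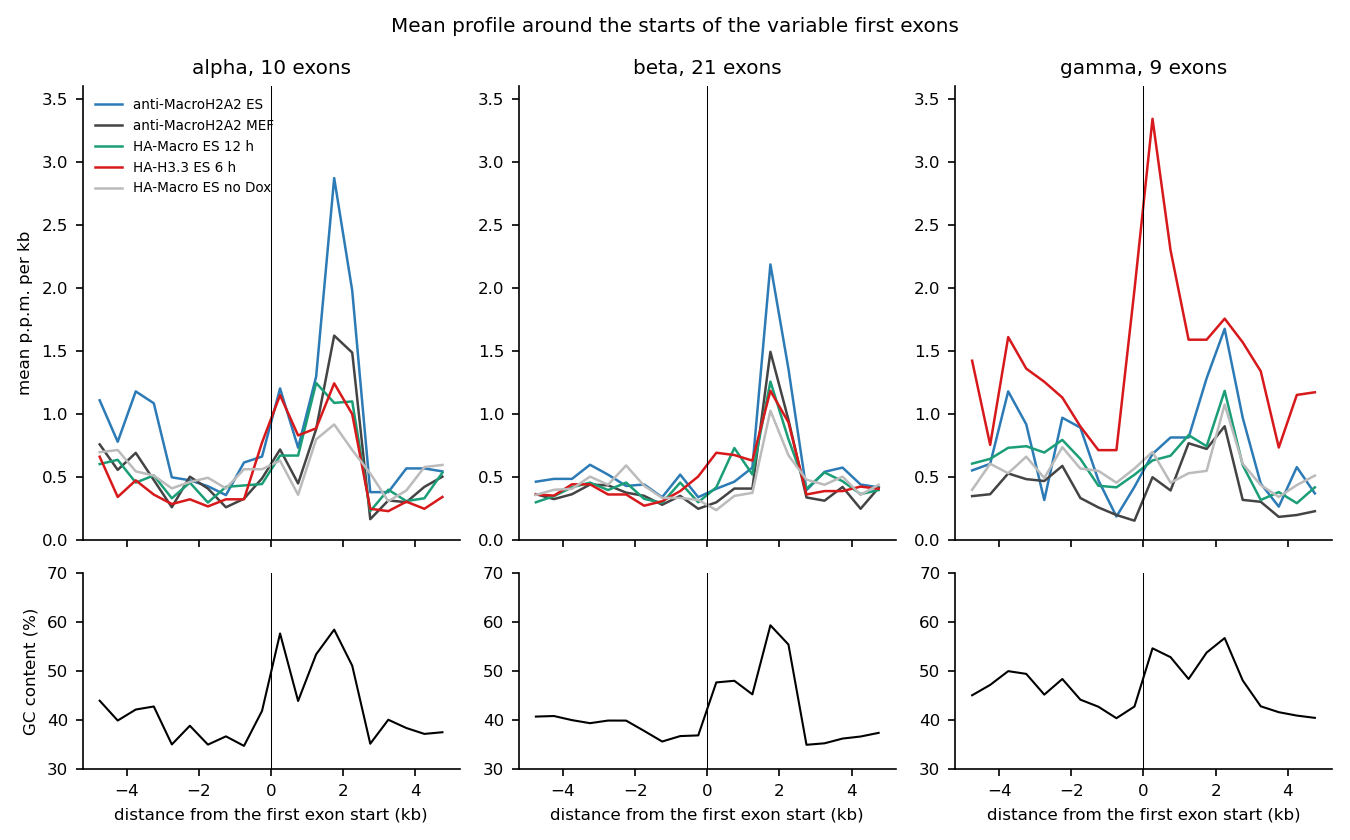
The upper panels plot the mean p.p.m. per kb over the exons of each cluster in 500 bp bins (y axis) against the distance from the exon start in kb (x axis) for 5 libraries, and the lower panels plot GC content in percent over the same bins on an axis from 30 to 70. Total MacroH2A2 peaks at 1.75 kb in alpha and beta, where GC content and no-Dox anti-HA also peak, and HA-H3.3 peaks at 0.25 kb in gamma.

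At single exons in ES cells the highest levels lay in alpha with anti-MacroH2A2 and in gamma with anti-HA, for HA-H3.3 as for HA-Macro at 3 h. Levels of single exons are p.p.m. in a 5 kb window centred on the exon start. The 40 windows had a median total MacroH2A2 level of 4.06 in ES cells, against 2.82 for the windows of all protein-coding genes, and of 2.70 against 2.02 in MEFs. By cluster the ES medians were 5.53 for alpha, 3.41 for beta and 3.41 for gamma. The highest were alpha exon 6 with 6.35 and, with 5.76 each, alpha exons 2 and 10. Alpha exon 2 was named after its values were seen. For HA-H3.3, the median exon matched the median gene at 3 h (3.41 for both) and was lower at 6 h (3.57 against 4.60). Gamma exons 7 and 9 were the highest, with 9.77 and 7.44 at 3 h and 12.2 and 10.1 at 6 h. The highest HA-Macro levels in ES cells were 6.75, 6.27 and 5.79 at gamma exons 6, 7 and 9 at 3 h. At 6 h gamma exon 6 was the highest with 5.01, followed by gamma exon 5 and Pcdha3 of alpha with 4.72 each. Pcdha3 was named after its values were seen, and it held 3.98 without Dox. At 12 h the highest, 4.24 at gamma exon 8 and 4.18 at alpha exon 4, lay in different clusters and hardly differed. At the low end were Pcdhb9, with 2.00 of total MacroH2A2 in ES cells, and Pcdhb15, with 1.71 and 1.60 of HA-H3.3. Without Dox, anti-HA medians were 2.88 for alpha, 2.20 for beta and 3.13 for gamma exons, against 2.20 for all gene windows. The median share of gene windows lower than a gamma exon was 91.1% without Dox and 73.3% in HA-Macro ES cells at 3 h.

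**Figure D3:**
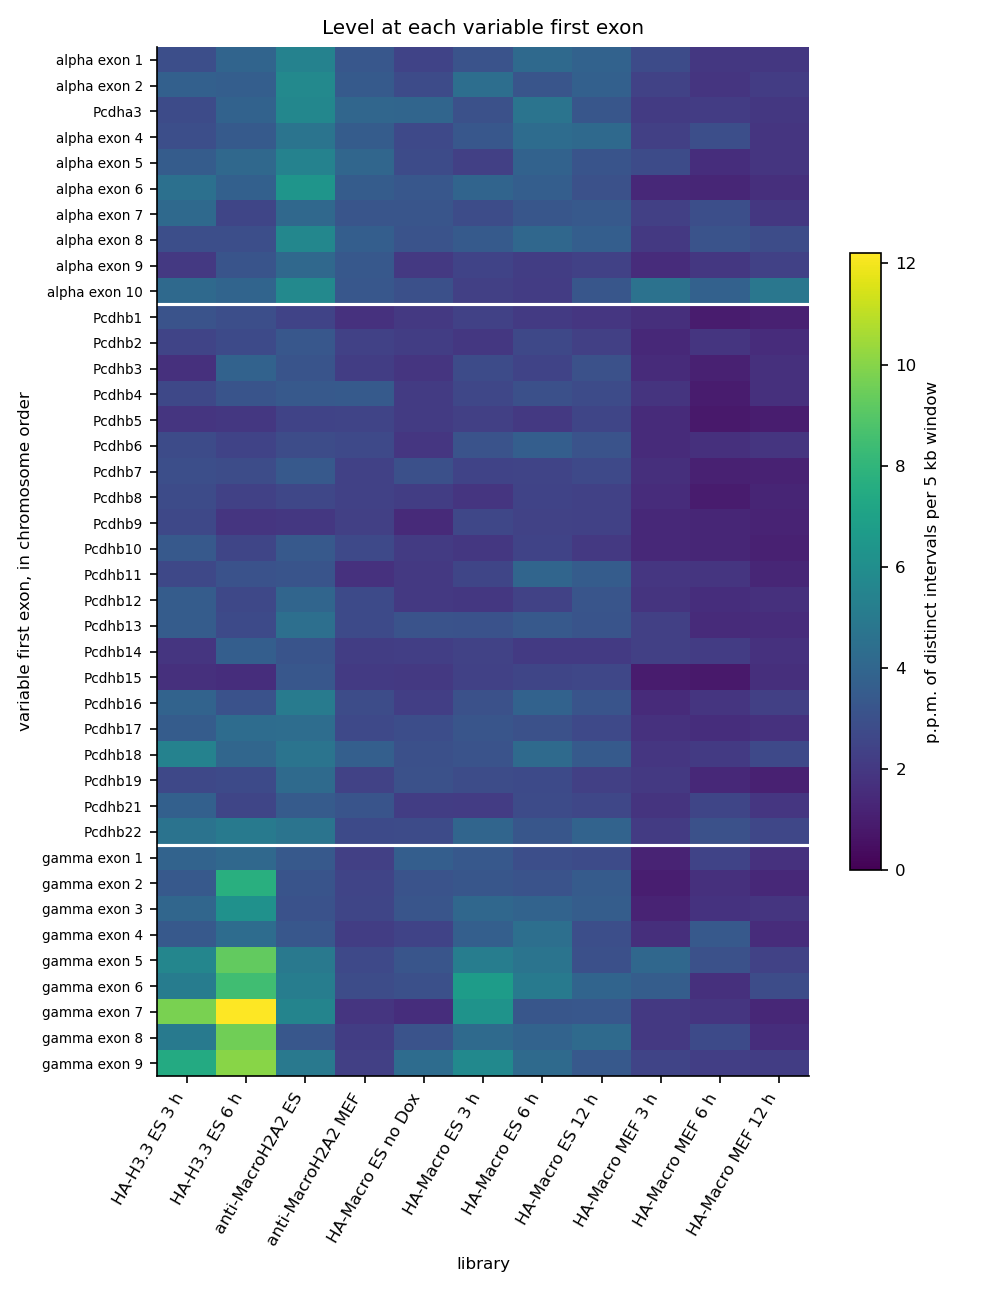
Heat map of p.p.m. of distinct intervals per 5 kb window (colour, linear from 0 to 12.2) at the 40 variable first exons (rows, in chromosome order) in the 11 libraries (columns), with white lines between the clusters. Gamma exons 5 to 9 lie between 8.45 and 12.2 in HA-H3.3 at 6 h, and only gamma exon 7 in HA-H3.3 at 3 h, at 9.77, reaches that range elsewhere.

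Gamma was not uniform along its length. Seeing these values, the exons were divided into gamma exons 1 to 4 and 5 to 9, so a difference in level between both parts is partly fixed by that choice. Exons 5 to 9 had a median HA-H3.3 level of 5.58 at 3 h and 9.58 at 6 h, against 3.64 and 5.26 for exons 1 to 4. Their median total MacroH2A2 level in ES cells was 4.94 against 3.23, and 2.29 against 2.39 in MEFs. Over the whole spans the order in ES cells turned, with 2.82 p.p.m. per 5 kb for exons 5 to 9 against 3.21 for exons 1 to 4. In MEFs the spans held 1.57 against 2.09. The 16.794 kb after the last variable exon, which hold the constant exons, carried 4.80 and 9.87 p.p.m. per 5 kb of HA-H3.3 but 2.31 of total MacroH2A2 in ES cells.

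The comparison of MEFs with ES cells asked whether MacroH2A2 at these genes differs between a differentiated and a pluripotent cell. The share of the library over all 3 clusters was lower in MEFs, with anti-MacroH2A2 as with anti-HA. The paper reports higher MacroH2A2 levels in MEFs and holds that normalization overstates its apparent loss at promoters there. A lower share is therefore not shown to be a lower amount. For total MacroH2A2, the log2 ratio of MEF over ES was −0.45 [−0.56, −0.33] over alpha, −0.41 [−0.52, −0.29] over beta and −0.69 [−0.83, −0.56] over gamma, and −0.50 [−0.57, −0.43] over the 3 together. For HA-Macro at 12 h it was −0.42 [−0.52, −0.33], −0.72 [−0.83, −0.62] and −0.82 [−0.94, −0.71], and −0.64 [−0.70, −0.58] together. The flanks gave −0.41 and −0.45, and chromosome 18 as a whole gave 0.05 and 0.07. In ES cells, HA-Macro at 12 h over no Dox was −0.13 [−0.23, −0.03] over alpha, −0.04 [−0.15, 0.06] over beta and 0.11 [−0.01, 0.22] over gamma. Without a no-Dox MEF library, HA-Macro made after Dox and anti-HA signal before Dox cannot be told apart in the HA-Macro ratios.

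Promoter windows of most genes shared this direction. The median over all protein-coding gene windows was −0.43 for total MacroH2A2 and −0.37 for HA-Macro at 12 h. Set against that median, the ratios became −0.02, 0.02 and −0.27 for total MacroH2A2 over alpha, beta and gamma, so neither alpha nor beta was separable from 0. For HA-Macro at 12 h they became −0.05, −0.35 and −0.45. Of the 3 whole spans, only gamma thus stayed below the typical gene with both antibodies by more than counting error. Spans are mostly sequence between exons, however, whereas the gene median is of 5 kb windows. In 5 kb windows on the exons, the medians of alpha, beta and gamma were −0.56, −0.51 and −0.57 in total MacroH2A2. In HA-Macro at 12 h they were −0.77, −0.79 and −0.91, so all 3 clusters lay below the median gene. The 18 neighbouring genes did too, with medians of −0.72 and −0.55. Gamma was lower than alpha by −0.25 [−0.42, −0.07] in total MacroH2A2 and −0.40 [−0.55, −0.25] in HA-Macro at 12 h, and these differences do not depend on scaling. It was also lower than beta by −0.29 [−0.47, −0.11] in total MacroH2A2, but in HA-Macro gamma minus beta was −0.10 [−0.25, 0.06] at 12 h and −0.12 [−0.31, 0.06] at 6 h, so those clusters were not separated there. Of genome tiles of the same length, 1.61% had a lower ratio than gamma in total MacroH2A2 and 1.41% in HA-Macro at 12 h. For beta these shares were 9.41% and 2.24%, and for alpha 7.14% and 15.8%.

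At 3 h the HA-Macro ratios were −0.20 over alpha, −0.57 over beta and −1.14 over gamma, and at 6 h −0.27, −0.73 and −0.85. Relative to the median gene, alpha turned to 0.35 at 3 h and 0.17 at 6 h. Taken as 3 pairs by hour, with hours in the place of replicates, the mean ratio was −0.30 ± 0.11 (SD, n = 3) over alpha, −0.67 ± 0.09 over beta, −0.94 ± 0.17 over gamma and −0.54 ± 0.12 over the flanks. Hours of single time courses are not replicates, so the SD also holds any change with the hour. An exact permutation test that flips the signs of the pairs gave two-sided p = 0.25 for each of these 4 regions, which is the smallest value that 3 pairs can give. Relative to the median gene the means became 0.16 ± 0.20 over alpha, whose direction flipped (exact permutation p = 0.5), −0.22 ± 0.18 over beta, −0.48 ± 0.09 over gamma and −0.08 ± 0.04 over the flanks. The low gamma value at 3 h rests on the ES 3 h library.

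Among the 40 exons, all of which reached the minimum of 20 intervals over the 2 libraries, 37 had a total MacroH2A2 ratio below 0, while 24.3% of all gene windows were above 0. The median was −0.53. Past 2-fold, 2 exons were lower (gamma exons 7 and 9) and 0 were higher, while 15.8% of all gene windows were 2-fold lower and 1.93% higher. The members' share of 2-fold lower windows was thus below that of the background in total MacroH2A2. With the median gene set to 0, 1 was lower, against 3.27% of gene windows. At 1.5-fold 16 were lower, against 39.8%, and in 1.2 kb windows 1 of the 4 that reached the minimum was 2-fold lower, against 44.7%. In HA-Macro at 12 h, 39 exons were below 0 with a median of −0.79, where 28.3% of gene windows were above 0. Past 2-fold, 9 of 40 were lower and 0 higher, against 12.2% and 2.12% of all gene windows, so here the share of lower windows was above the background. With the median gene set to 0, 3 were lower, against 2.79% of gene windows. At 1.5-fold 29 were lower, against 35.6%, and in 1.2 kb windows 2 of the 8 that reached the minimum were 2-fold lower, against 22%. The 9 exons 2-fold lower in 5 kb windows were alpha exon 4, Pcdhb5, Pcdhb7, Pcdhb11, Pcdhb13, Pcdhb19 and gamma exons 2, 7 and 8, of which alpha exon 4, Pcdhb7, Pcdhb13 and gamma exon 8 were named after their values were seen. At 3 h, 11 were 2-fold lower and 1 higher, against 34.5% and 5.22%. At 6 h, 18 were 2-fold lower and 0 higher, against 17.9% and 2.55%. The share of lower windows was thus below the background at 3 h and above it at 6 h.

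**Figure D4:**
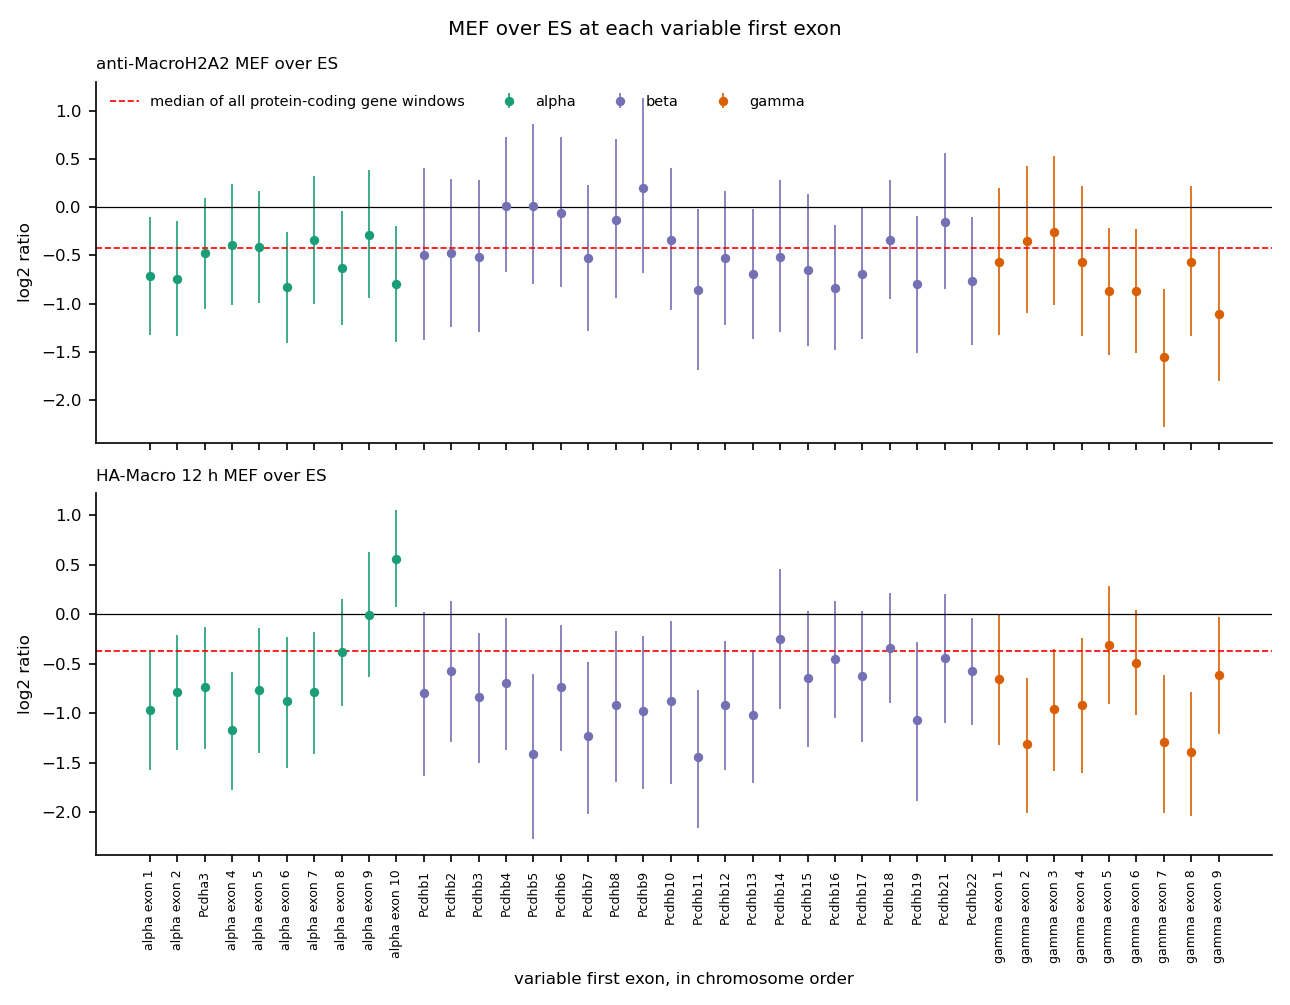
Log2 ratio of MEF over ES (y axis) at the 40 variable first exons in chromosome order (x axis) for total MacroH2A2 (top) and HA-Macro at 12 h (bottom); points are 1 library over 1 library, bars are exact 95% counting intervals, and the dashed line is the median of all protein-coding gene windows. Gamma exon 7 is lowest in the top panel at −1.55 and alpha exon 10 is highest in the bottom panel at 0.56.

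Gamma exon 7 (chr18:37966064-37968631) was the exon with the lowest total MacroH2A2 ratio. Its levels were 5.53 p.p.m. in ES cells and 1.89 in MEFs with anti-MacroH2A2. HA-Macro levels were 1.61 without Dox, 6.27, 3.28 and 3.33 at 3, 6 and 12 h in ES cells, and 2.03, 1.90 and 1.36 in MEFs. Every ES library with Dox thus lay above every MEF library and above the no-Dox library. MEF over ES was −1.55 [−2.28, −0.84] in total MacroH2A2 and −1.29 [−2.01, −0.61] in HA-Macro at 12 h. It is also the richest in CpG of the 40 exons, with 58.0 per kb.

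Gamma exon 9 (chr18:37979200-37984733), the last before the constant exons, gave 4.94 in ES cells and 2.29 in MEFs with anti-MacroH2A2, a ratio of −1.11 [−1.80, −0.42]. HA-Macro levels were 4.31 without Dox, 5.79, 4.24 and 3.39 in ES cells and 2.50, 2.28 and 2.21 in MEFs. Here the no-Dox level exceeded the 6 h and 12 h levels. MEF over ES at 12 h was −0.61 [−1.21, −0.03].

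Alpha exon 10 (chr18:37303623-37306184), the last of its cluster and one of unique sequence, was the exception to the direction of the cluster. Anti-HA levels were 2.96 without Dox and 2.29, 2.15 and 3.28 at 3, 6 and 12 h in ES cells, and 4.62, 3.80 and 4.83 in MEFs. All 3 MEF libraries exceeded all 4 ES libraries. The HA-Macro ratio of MEF over ES was 1.01 [0.38, 1.66] at 3 h, 0.82 [0.14, 1.52] at 6 h and 0.56 [0.07, 1.06] at 12 h. Anti-MacroH2A2 went the other way, with 5.76 in ES cells and 3.3 in MEFs, a ratio of −0.80 [−1.40, −0.20]. The highest alpha tile of each HA-Macro MEF library starts 215 kb from the alpha start, at this exon. The 41.127 kb after it gave HA-Macro ratios of 0.44 [0.16, 0.71], 0.62 [0.36, 0.89] and 0.33 [0.10, 0.56] at 3, 6 and 12 h, where anti-MacroH2A2 gave 0.00 [−0.28, 0.29]. Without a no-Dox MEF library, HA-Macro made after Dox and the anti-HA signal before Dox in MEFs cannot be told apart at this exon.

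Its neighbour alpha exon 9 (chr18:37249790-37252225) held 4.12 and 3.37 of total MacroH2A2 in ES cells and MEFs, and its HA-Macro ratio at 12 h was −0.00 [−0.64, 0.63]. The span of alpha exons 1 to 8 gave −0.93 [−1.07, −0.78] in HA-Macro at 12 h and −0.66 [−0.81, −0.50] in total MacroH2A2. Dividing alpha there, too, followed from the values seen. Alpha exon 1 gave −0.97 [−1.58, −0.38] and −0.71 [−1.32, −0.10], and alpha exon 6 gave −0.88 [−1.55, −0.23] and −0.83 [−1.40, −0.25].

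Among beta exons, Pcdhb5 held 2.47 p.p.m. of total MacroH2A2 in ES cells and 2.50 in MEFs, a ratio of 0.02 [−0.80, 0.86], whereas HA-Macro at 12 h was 2.54 in ES cells and 0.956 in MEFs, a ratio of −1.41 [−2.27, −0.61]. Pcdhb9 gave 0.20 [−0.68, 1.13] and −0.97 [−1.76, −0.22]. Pcdhb11 was low with both, at −0.86 [−1.69, −0.02] and −1.44 [−2.16, −0.76], and Pcdhb19 likewise at −0.80 [−1.51, −0.09] and −1.07 [−1.88, −0.28]. The first and last beta genes, Pcdhb1 and Pcdhb22, gave −0.49 [−1.38, 0.41] and −0.77 [−1.43, −0.10] in total MacroH2A2. Over all 40 exons the ratios of the 2 antibodies, which share no library, correlated at r = −0.05 and rho = −0.10, so the order of exons by ratio was not shared. The intervals of single beta exons span more than 1 log2 unit.

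The Dox time course asked how fast newly made histone accumulates at each site, where a level that is high early and lower late is the pattern the study reads as fast turnover. Over gamma, HA-Macro in ES cells at 12 h over 3 h was −0.48 [−0.57, −0.38], while alpha gave 0.06 [−0.03, 0.16] and beta 0.11 [0.01, 0.21]. The flanks were lower at 12 h too, with −0.36 [−0.46, −0.25] upstream and −0.31 [−0.40, −0.22] downstream, and the 18 neighbouring genes had a median of −0.70, so a lower level at 12 h was not particular to gamma. With 6 h as the early time, gamma gave −0.26 [−0.35, −0.16], alpha −0.03 and beta −0.02, so the signs of alpha and beta flipped, and the flanks gave −0.07 and −0.05. Gamma minus alpha, which does not depend on scaling, was −0.54 [−0.67, −0.40] against 3 h and −0.22 [−0.36, −0.09] against 6 h. Relative to the median gene of −0.25, alpha and beta stood at 0.31 and 0.35 and gamma at −0.23 for 12 h over 3 h, and the 3 clusters together flipped from −0.11 to 0.14. Against 6 h, where the median gene was at −0.14, these were smaller, with 0.11 for alpha, 0.12 for beta and −0.12 for gamma, and the 3 clusters together flipped from −0.10 to 0.04. Spans are mostly sequence between exons, and chromosome 18 as a whole stood at 0.25 against 3 h and 0.15 against 6 h. Among tiles of their own length, 56.3% had a lower 12 h over 3 h ratio than alpha, 65.5% than beta and 7.11% than gamma. In 5 kb windows on the exons, the medians of that ratio were 0.19, 0.09 and −0.32.

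In MEFs the differences between clusters at 12 h over 3 h lay within counting error. HA-Macro was −0.16 [−0.28, −0.04] over alpha, −0.05 [−0.18, 0.09] over beta and −0.16 [−0.31, −0.02] over gamma, and gamma minus alpha was −0.00 [−0.19, 0.18]. Against 6 h, alpha gave −0.18 [−0.30, −0.07], beta −0.02 [−0.15, 0.12] and gamma −0.23 [−0.37, −0.08], and gamma minus beta was −0.21 [−0.41, −0.02]. Gamma over alpha as densities was 0.99, 1.02 and 0.99 at 3, 6 and 12 h in MEFs, and 1.11, 1.90, 1.53 and 1.31 in ES cells without Dox and at 3, 6 and 12 h.

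**Figure D5:**
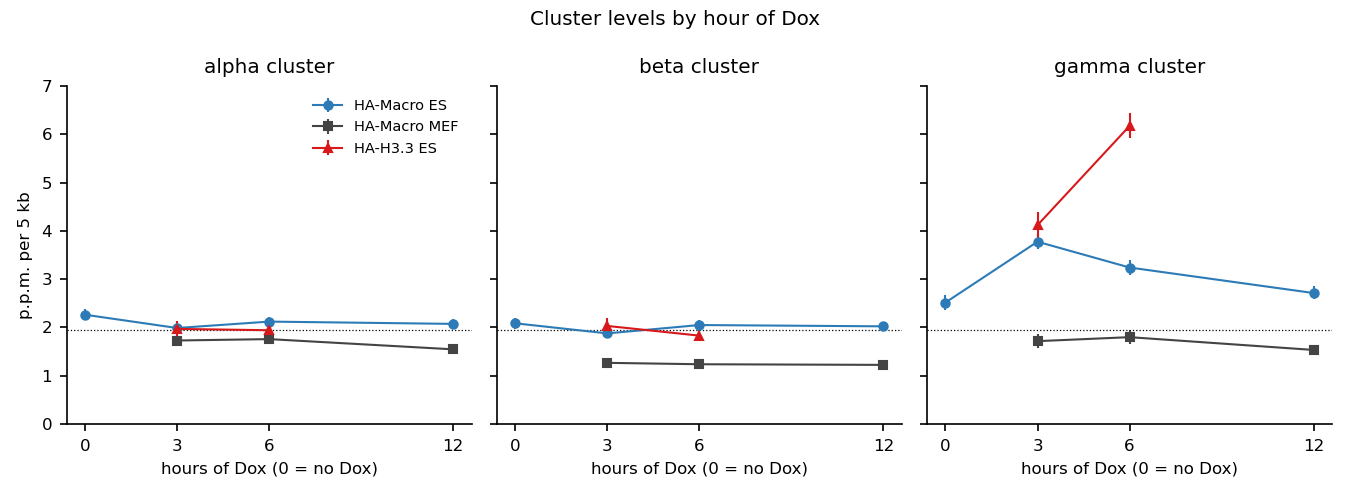
P.p.m. per 5 kb over each cluster (y axis, from 0) against hours of Dox (x axis, 0 for no Dox) for HA-Macro ES cells, HA-Macro MEFs and HA-H3.3 ES cells; points are single libraries, bars are exact 95% counting intervals of the count and the dotted line is the genome mean of 1.95. The gamma panel shows 2.52, 3.78, 3.24 and 2.71 for HA-Macro ES cells, and alpha and beta are nearly flat.

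Within gamma, the lower level at 12 h than in the 3 h library was uneven. The parts were divided after levels of that library were seen, in which exons 6, 7 and 9 were the highest, so a lower ratio in the second part is partly fixed by that choice. The span of exons 5 to 9 gave 12 h over 3 h of −0.85 [−0.998, −0.70], and the stretch of constant exons −0.95 [−1.24, −0.66], while the span of exons 1 to 4 gave −0.03 [−0.17, 0.11]. Against 6 h, these were −0.28 [−0.44, −0.12], −0.13 [−0.46, 0.20] and −0.26 [−0.40, −0.13], so that the contrast between both parts was seen with the 3 h library and not with the 6 h library. Of the exons, gamma exon 7 gave −0.91 [−1.40, −0.44] against 3 h and 0.02 [−0.53, 0.58] against 6 h, and gamma exon 5 gave −0.79 [−1.31, −0.28] and −0.65 [−1.19, −0.13].

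No exon passed 2-fold in either direction between 3 h and 12 h in ES cells, where 14.1% of gene windows were lower and 2% higher, nor in MEFs, where 1.53% were lower and 1.33% higher. Against 6 h, 0 exons passed it in ES cells, where 1.17% of gene windows were lower and 0.332% higher, and 1 was lower in MEFs (gamma exon 4, named after its values were seen, at −1.13 [−1.88, −0.40]), where 1.85% were lower and 1.1% higher. The exon medians of 12 h over 3 h were 0.06 in ES cells and −0.13 in MEFs, and those of 12 h over 6 h were −0.11 and −0.00, so the sign in ES cells and the order of the cell types turned. Alpha exon 10, at 0.52 [−0.10, 1.15], and Pcdhb12, at 0.69 [0.05, 1.36], were the highest in ES cells, and against 6 h they gave 0.61 [−0.02, 1.25] and 0.43 [−0.18, 1.05]. In MEFs Pcdhb15, with 0.925 p.p.m. at 3 h, 0.856 at 6 h and 1.66 at 12 h, was highest at 0.84 [−0.21, 2.03], followed by Pcdhb16 at 0.65 [−0.20, 1.57]. Pcdhb19 at −0.88 [−1.80, 0.04] and gamma exon 5 at −0.75 [−1.37, −0.13] were the lowest.

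Over the no-Dox library, gamma gave log2 ratios in HA-Macro ES cells of 0.59 [0.48, 0.69] at 3 h, 0.37 [0.25, 0.48] at 6 h and 0.11 [−0.01, 0.22] at 12 h. The median gene window gave 0.46, 0.32 and 0.17, so gamma lay close to the typical gene at each hour. The alpha and beta spans were at −0.19 [−0.29, −0.08] and −0.15 [−0.26, −0.04] at 3 h, −0.09 [−0.20, 0.01] and −0.02 [−0.13, 0.08] at 6 h, and −0.13 and −0.04 at 12 h. In 5 kb windows on the exons, in contrast, the median ratio was above 0, with 0.19, 0.23 and 0.20 for alpha at 3, 6 and 12 h. Beta exons gave 0.12, 0.23 and 0.24. Gamma exon 6 (chr18:37925234-37928194), the highest in HA-Macro ES cells together with exon 9 by the mean of the hours with Dox, held 2.96 without Dox and 6.75, 5.01 and 3.96 at 3, 6 and 12 h. Its ratios over no Dox were 1.19 [0.63, 1.78], 0.76 [0.17, 1.37] and 0.42 [−0.19, 1.05].

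Over gamma, HA-H3.3 was higher at 6 h than at 3 h, with a log2 ratio of 0.58 [0.47, 0.70]. Alpha gave −0.02 [−0.16, 0.12] and beta −0.15 [−0.29, −0.01]. The median gene window gave 0.45, and relative to it gamma stood at 0.13, alpha at −0.47 and beta at −0.60, so that the 3 clusters together flipped from 0.22 to −0.23. Gamma exceeded alpha by 0.60 [0.42, 0.78] whatever the scaling, and 96.8% of tiles of its length had a lower ratio. The constant exons of gamma gave 1.04 [0.72, 1.37].

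Past 2-fold, 2 exons were higher at 6 h (Pcdhb3 and gamma exon 2) and 0 lower, against 12.4% and 3.6% of gene windows. Pcdhb3 went from 1.71 to 3.85 p.p.m., a ratio of 1.17 [0.19, 2.28] that rests on 11 and 41 intervals. Gamma exon 2 (chr18:37885360-37887970) went from 3.41 to 7.70, a ratio of 1.17 [0.48, 1.92]. All 9 gamma exons had ratios above 0, with a median of 0.62, against 5 of 10 in alpha and 9 of 21 in beta, while 74.4% of all gene windows were above 0. The lowest were alpha exon 7 at −0.72 [−1.55, 0.10] and Pcdhb21 at −0.55 [−1.40, 0.30]. Gamma exon 1, the first of its cluster, hardly differed between the libraries, with 3.88 and 4.13.

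Protocadherins outside the clusters, which have no variable exon array, gave a reference of related genes. All 12 (Pcdh1 to Pcdh20) reached the minimum. Their median MEF over ES ratio was −0.29 in total MacroH2A2 and 0.14 in HA-Macro at 12 h, compared with −0.53 and −0.79 for the 40 clustered exons. In HA-Macro at 12 h, 6 of 12 were above 0, and 1 of the 40 clustered exons was. Past 2-fold, Pcdh15, a protein of the hair cell tip link, was higher at 1.09 [0.47, 1.74], and none was lower, against 2.12% and 12.2% of all gene windows. In total MacroH2A2 none passed 2-fold. In HA-Macro at 3 h Pcdh7 was lower at −1.02 [−1.85, −0.25], where 34.5% of gene windows were, and at 6 h it gave −0.60 [−1.46, 0.20]. In HA-H3.3 Pcdh20 was lower at 6 h at −1.14 [−2.35, 0.03], where 3.6% of gene windows were. None passed 2-fold between 3 h or 6 h and 12 h in ES cells or MEFs.

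Genes known to act on protocadherin promoter choice or silencing were found for 15 of 16 symbols searched, where Wapal and Wapl name the same gene. These are genes with promoters of their own, and Dnmt3b is known for its expression in pluripotent cells. Total MacroH2A2 was 2-fold lower in MEFs at 6 of 15: Ctcf, the insulator protein, at −1.87 [−2.67, −1.10], the methyltransferases Dnmt1 at −1.41 [−2.23, −0.61] and Dnmt3b at −1.02 [−1.71, −0.35], Smchd1, which silences these clusters, at −1.09 [−1.88, −0.31], the cohesin loader Nipbl at −1.02 [−1.85, −0.19], and Wiz at −1.02 [−1.65, −0.40]. The median was −0.85, and 0 were 2-fold higher, against 15.8% of all gene windows lower and 1.93% higher. In HA-Macro at 12 h none passed 2-fold and the median was −0.52. At 3 h 13 were lower, against 34.5% of gene windows, with a median of −1.42. At 6 h 4 were lower (Ctcf, Rad21, Wiz and Stag2), against 17.9%, with a median of −0.73.

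In the ES time course 9 of 15 were 2-fold lower at 12 h than at 3 h, against 14.1% of all gene windows, with a median of −1.08, and 0 of the 40 protocadherin exons were. With 6 h as the early time 1 of 15 was lower, against 1.17%, with a median of −0.33. The cohesin subunit gene Rad21 was the lowest at −1.65 [−2.30, −1.03] against 3 h and −1.19 [−1.87, −0.55] against 6 h, and against 3 h it was followed by Wapal at −1.33, Rest at −1.30, Smc1a at −1.23, Stag2 at −1.20, Dnmt3b at −1.16, Dnmt1 at −1.09, Smc3 at −1.08 and Ctcf at −1.07. In MEFs none passed 2-fold, with a median of −0.11. For HA-H3.3 the median was 0.56 and Stag1, another cohesin subunit gene, was the only one of 15 that was 2-fold higher at 6 h, at 1.36 [0.47, 2.35], where 12.4% of gene windows were.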

How the data were processed

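Chromatin was immunoprecipitated with anti-HA or anti-MacroH2A2 antibodies and sequenced. Identical reads were merged with their number retained, and the authors aligned them to mm9 with Bowtie 1.0 (per the processing notes). Up to 1 mismatch was tolerated, a read matching several sites was assigned to 1 of them at random, and alignments were lengthened. The deposited files hold interval positions, with no strand, quality, score or count column, so every count was made here. Intervals span 150 bp in the HA-Macro files, as the methods state, and 400 bp in the others. Identical intervals were counted once, which removed 3.27% to 6.00% of intervals in the former and 0.462% to 0.693% in the latter. Midpoints were counted on chromosomes 1 to 19, X and Y, and divided by the library's distinct intervals (parts per 1000000).

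The genome was NCBIM37 (mm9) with GENCODE vM1. First exons of a cluster within 1 kb were merged. RefSeq (GRCm38.p6, names only) lists 14 Pcdha, 22 Pcdhb and 22 Pcdhg names, which were not mapped onto the exons, so C-type isoforms and gamma sub-families are not told apart. Windows of 4 neighbouring exon pairs overlap by up to 778 bp. Ratios have exact Clopper-Pearson 95% intervals, and differences of ratios have normal intervals from the counts. A window needed 20 intervals over both libraries. With 1 library per condition no condition was tested against another, and HA-Macro MEFs and ES cells were compared over 3 pairs by hour with an exact sign-flip permutation test.

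The members, lists and tests were chosen with earlier results of these data known. Members were named if first or last in a cluster, if among the 2 highest or 2 lowest ratios of 5 comparisons, or if among the 2 highest ES levels for an antibody (22 of 40). Alternatives were repeats kept, other scalings, other windows and folds, exons only, unique tiles, the 6 h libraries and removal of the top 1% of 100 kb tiles by no-Dox anti-HA, of which 0 lay over the clusters. Counting was tested on simulated data. Python 3.11.15, numpy 2.4.6, pandas 2.3.3, scipy 1.17.1 and matplotlib 3.10.9 were used.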

Additional observations from a re-analysis of the deposited data

Results flagged for a closer look

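The HA-Macro ratio of 12 h over 3 h differed in direction or size between ES cells and MEFs at 3 clusters and 1 exon. For alpha it was 0.06 in ES cells and −0.16 in MEFs, a difference of 0.222 [0.07, 0.37]. For beta it was 0.11 and −0.05, a difference of 0.157 [−0.01, 0.32] that does not exceed counting error. For gamma it was −0.48 and −0.16, a difference of −0.315 [−0.49, −0.14]. For Pcdhb11 it was 0.49 and −0.57, a difference of 1.06 [0.06, 2.06], and it was the only one of the 22 named exons whose interval excluded 0. Alpha exon 5, named after its values were seen, gave 1.04 [0.13, 1.96]. These values rest on the HA-Macro ES 3 h library. The flanks differed as well, by −0.224 [−0.34, −0.11]. With 6 h as the early time the differences were 0.15 [0.00, 0.30] for alpha, −0.00 [−0.17, 0.16] for beta, −0.03 [−0.20, 0.15] for gamma, 0.37 [−0.60, 1.35] for Pcdhb11, −0.48 [−1.45, 0.50] for alpha exon 5, whose direction turned, and −0.04 [−0.15, 0.08] for the flanks. Against 6 h the intervals of gamma exon 6, at −1.06 [−1.95, −0.17], and of gamma exon 8, at 0.90 [0.03, 1.77] and named after its values were seen, excluded 0. The intervals cover counting error only, and with 1 library per condition the difference between cell types was not tested. Among 40 exons, some 95% intervals would exclude 0 through counting error alone, and the share over all gene windows was not counted.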

How the results depend on the processing

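Setting the median gene window to 0 moved most cluster ratios. Over the 3 clusters, MEF over ES became −0.0700 for total MacroH2A2, −0.262 for HA-Macro at 12 h and −0.0671 at 3 h, and the signs of HA-Macro ES 12 h over 3 h (0.137) and HA-H3.3 6 h over 3 h (−0.231) reversed. For single clusters it reversed alpha in HA-Macro at 3 h (0.352), and it moved beta in total MacroH2A2 to 0.0212, within counting error of 0. The same shift put chromosome 18 as a whole at 0.246 in HA-Macro ES 12 h over 3 h and −0.491 in HA-H3.3. First exons alone gave −0.61 for total MacroH2A2 over the 3 clusters and reversed beta in HA-H3.3 (0.0290). Tiles with at least 80% unique 32-base words gave −0.69 for HA-Macro at 3 h. With 6 h as the early time beta in ES cells changed sign to −0.0190 [−0.11, 0.08], within counting error of 0. Exons 2-fold lower in MEFs in total MacroH2A2 numbered 1 in place of 2 with the median gene at 0, 1 of the 4 that reached the minimum in 1.2 kb windows and 16 at 1.5-fold. In HA-Macro at 12 h they numbered 3 in place of 9 with the median gene at 0, 2 of the 8 that reached the minimum in 1.2 kb windows, 29 at 1.5-fold and 15 over the first exon alone, for which no share over all genes was counted. The alternatives for 2-fold lower counts, and 6 h for 3 h in MEF over ES and in the gene lists, were chosen after seeing the data. First exons alone also gave −0.66 for alpha in total MacroH2A2, −0.67 for gamma in HA-Macro ES 12 h over 3 h and 0.14 for alpha in HA-H3.3, in place of −0.02. Of 82 values of the main results 68, and of 144 of the single clusters and gene lists 117, moved by less than counting error, or by less than 1.5 times for counts. Among these alpha, whose ratio lay near 0, changed sign in ES cells with 6 h as the early time (−0.03) and in HA-H3.3 over unique tiles (0.01). In total MacroH2A2 and in HA-Macro at 12 h, the comparisons for which they were run, 0 exons were 2-fold higher in MEFs under the alternatives. These counts of 0 are among the 82 values. Most alternatives recount the same libraries, so the tally cannot show how other libraries would behave. With 6 h for 3 h, regulators 2-fold lower numbered 4 in place of 13 in MEFs over ES cells and 1 in place of 9 in the ES time course, and other protocadherins 0 in place of 1. Paired by hour, which was chosen after seeing the data, HA-Macro MEF over ES was −0.62 over the 3 clusters in place of −0.64, and −0.30 in place of −0.42 over alpha. No replicate could be left out with 1 library per condition. Depth limits single exons, whose windows held 11 to 130 intervals among those named in HA-H3.3.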
